A study of Mus musculus with 8 samples.

Results

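H3K9me3 peaks of wild-type (WT) and KAP1 knockout (KO) mouse embryonic fibroblasts (MEF) were compared on chromosomes 1 to 19. MEF are connective tissue cells grown from embryos. The peaks were all those listed on these chromosomes for the WT and KO libraries precipitated with the H3K9me3 antibody ab8898, 14185 in WT and 2862 in KO. Together they made up 17047 of the 38359 peaks in the 5 peak lists of the series, which also cover H4K20me3 in both genotypes and KAP1 in WT cells. Cells were fixed for 10 min in 1% formaldehyde and the chromatin was sheared to pieces between 200 and 400 bp. The labels name the genotypes WT and KAP1 KO and do not say how KAP1 was removed, from which strain or age of embryo the cells came, or whether they were 1 clone. No library measured KAP1 in KO cells.

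Each genotype had 1 H3K9me3 library, so the difference between them has no replicate check and was not tested, and genotype, culture and library cannot be told apart. The 95% intervals below cover counting over peaks, domains or windows alone. The files hold no read counts, so the depth behind a peak is unknown, and its part in the number of KO peaks was not tested. To set lists of like size side by side, values are also given for the 2862 WT peaks with the highest scores, here called the equal-number WT set. The score is the authors' own value for each peak and served to rank peaks within a list. Long peaks tend to score high, so the equal-number set is rich in long peaks by construction.

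KAP1 (TRIM28) does not bind DNA sequence itself and is brought to its targets by KRAB zinc finger proteins. It recruits the methyltransferase SETDB1, which places H3K9me3, and HP1 proteins, which bind the mark. In mammals this pathway is known for silencing endogenous retroviruses, for maintaining imprinting control regions and for marking clusters of zinc finger genes, where H3K9me3 can extend over long stretches.

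Peaks of both genotypes were mostly short and much alike in typical length. The median was 459 bp in WT (interval 454 to 463 bp) and 444 bp in KO (438 to 452 bp), and the middle 50% of peaks ran from 353 to 651 bp in WT and from 367 to 641 bp in KO. The lists parted at the long end. Peaks of at least 1 kb were 9.48% of the WT list (1345 peaks, interval 9.0 to 9.98%) and 13.5% of the KO list (385 peaks, 12.2 to 14.8%). Peaks of at least 2 kb were 1.76% in WT (1.55 to 1.99%) and 3.88% in KO (3.20 to 4.65%). Peaks of at least 1 kb held 27.3% of the covered bases in WT and 39.8% in KO. By number WT still had more of the longest peaks, with 34 of at least 5 kb against 15 in KO.

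Length followed score within each list. In WT the median length was 928 bp in the 20% of peaks with the highest scores and 325 bp in the 20% with the lowest, and in KO it was 892.5 and 363 bp. In the equal-number WT set the median was 926 bp and 42.4% of peaks reached 1 kb. That set was ranked by a score that follows length, so this comparison does not settle which genotype had the longer peaks. Within the 20% of highest scores of each list, the share of at least 1 kb was 42.8% in WT and 44.4% in KO.

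The 3 longest WT peaks all lay on chromosome 4. They ran from 145709101 to 145724185 (15085 bp), from 146704010 to 146716053 (12044 bp) and from 147008621 to 147020461 (11841 bp). Their score ranks in the WT list were 1285, 118 and 3776, so great length did not always go with a top score. KO peaks covered 10.1% of the first and none of the others. The 3 longest KO peaks lay on chromosome 1 from 90107891 to 90119326 (11436 bp), on chromosome 7 from 67006316 to 67016060 (9745 bp) and on chromosome 8 from 19894607 to 19902389 (7783 bp). WT peaks covered 97.8%, 71.3% and 76.4% of them. The longest KO peaks were thus sites called in WT too, while the longest WT peaks were mostly not called in KO. Of the 100 longest WT peaks 40 lay on chromosome 4, and of the 100 longest KO peaks 0 did.

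On these chromosomes 343 WT peaks overlapped a KO peak by at least 1 bp, which is 2.42% of the WT list, and 324 KO peaks overlapped a WT peak, 11.3% of the KO list. Overlapping peaks were longer than the others in both lists, with medians of 729 bp against 455 bp in WT and 699 bp against 431.5 bp in KO. A longer peak can meet another more easily, so part of this follows from length itself. In 247 cases a single WT peak met a single KO peak. Within these pairs the median length was 684 bp in WT and 642 bp in KO, and the KO peak was the longer in 136 pairs and the WT peak in 109. The share with a longer KO peak, 55.1%, had an interval from 48.6 to 61.4% and was not distinguishable from even. Midpoints of the paired peaks lay a median of 97.5 bp apart, and the median overlap was 491 bp. The pairs were formed by overlap, so near midpoints were built in. In 10% of pairs the midpoints lay more than 531 bp apart, and across the pairs the lengths had a Spearman rho of 0.55.

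WT peaks lay closer together than KO peaks. The distance from a peak to the nearest other peak of its list, edge to edge, had a median of 4.66 kb in WT (interval 4.20 to 5.29 kb) and 19.8 kb in KO (16.9 to 22.6 kb). A neighbour within 5 kb was present for 50.5% of WT peaks (49.6 to 51.3%) and 32.1% of KO peaks (30.4 to 33.9%). A neighbour within 1 kb was present for 36.6% in WT and 18.6% in KO. WT also had more peaks that nearly touched, since 6.06% of the gaps between consecutive WT peaks were at most 100 bp, against 3.20% in KO. A continuous stretch of the mark may be called as several adjoining peaks, and the lists do not tell such pieces from separate sites.

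A shorter list has wider gaps, and when list size was matched the order depended on the distance. At the shortest distances WT still led. A neighbour within 1 kb was present for 22.0% of the equal-number WT set (20.5 to 23.5%) and for 18.6% of KO peaks (17.1 to 20.0%). Gaps of at most 100 bp were 4.64% in that set and 3.20% in KO. In the equal-number WT set 31.2% of peaks had a neighbour within 5 kb (29.5 to 32.9%), close to the KO share of 32.1%. At 100 kb the KO peaks were the more crowded, and at 1000 kb they were not. A neighbour within 100 kb was present for 67.1% of KO peaks (65.4 to 68.8%) and for 57.9% of the equal-number WT set (56.1 to 59.7%). A neighbour within 1000 kb was present for 89.6% (88.4 to 90.7%) and 92.1% (91.0 to 93.0%). The median nearest distance was 19.8 kb in KO against 56.1 kb in that set. For the 2199 KO peaks outside the 9 runs of crowded windows described below it was 54.3 kb. For the 2666 peaks of the equal-number WT set outside its own 2 runs by the same rule it was 71.3 kb. Without the runs of either list the KO median was thus still the shorter. Runs were picked for crowding, so a longer median without them was built in. The mean gap between consecutive peaks was 827 kb in KO and 824 kb in the equal-number WT set, while the median gap was 53.6 kb and 199 kb. KO peaks thus combined short gaps with very long ones.

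**Figure D1:**
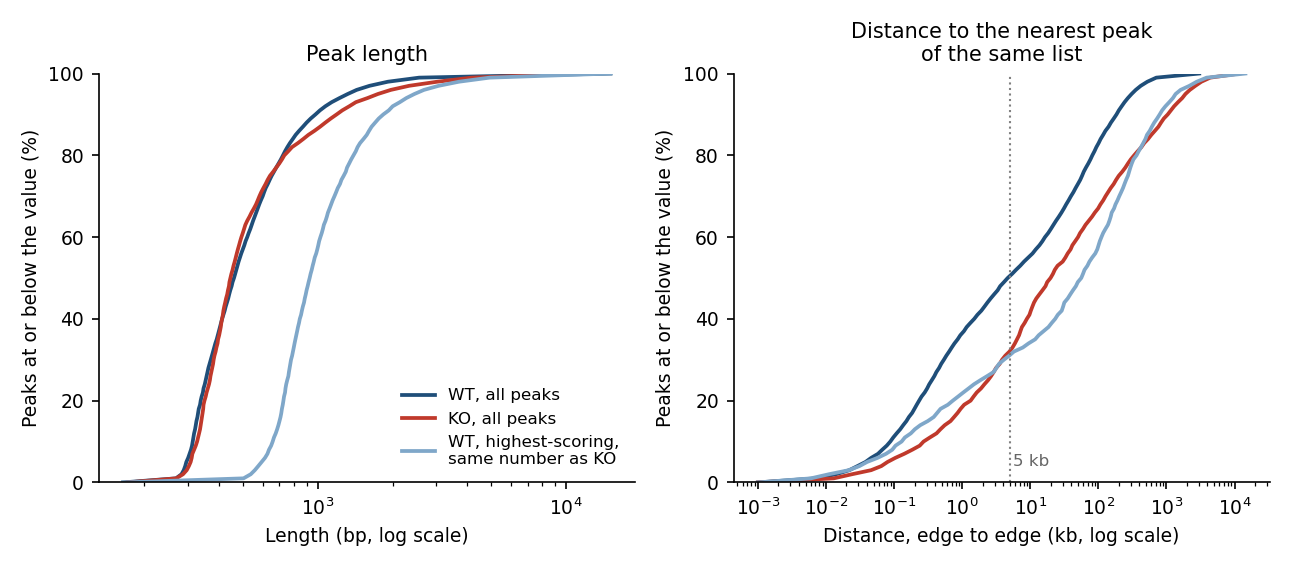
Cumulative share of H3K9me3 peaks (percent of each list) by peak length in bp (left) and by edge-to-edge distance to the nearest peak of the same list in kb (right), both on log axes, for WT, KO and the 2862 highest-scoring WT peaks. The WT and KO length curves nearly coincide, with medians of 459 and 444 bp. In the distance panel 50.5% of WT peaks and 32.1% of KO peaks lie at or below the dotted line at 5 kb.

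The median distance to the nearest peak of the other genotype was 70.8 kb from KO (65.6 to 79.4 kb) and 688 kb from WT. Within 5 kb of a KO peak lay 4.63% of WT peaks (4.29 to 4.99%), and within 5 kb of a WT peak lay 19.1% of KO peaks (17.7 to 20.6%). From the equal-number WT set, 6.92% of peaks had a KO peak within 5 kb and 19.7% within 100 kb. Of all WT peaks 16.9% had a KO peak within 100 kb. Most WT peaks, strong ones included, therefore had no KO peak within 100 kb. The KO list was sparse, with a mean gap of 827 kb, so many positions lie far from a KO peak. The shares are given as a description.

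Windows of 1 Mb showed how unevenly the peaks were spread. The 19 chromosomes were divided into 2426 windows between the outermost peaks of any list. WT peaks were present in all but 262 windows (10.8%), whereas 1532 windows (63.1%) held no KO peak and 1341 (55.3%) held no peak of the equal-number WT set. To reach 50% of the peaks took the 426 fullest windows in WT, 209 in the equal-number set and 82 in KO. The fullest 1% of windows, 25 in number, held 10.5% of WT peaks, 16.1% of the equal-number set and 29.7% of KO peaks. The variance of the counts divided by their mean would be 1 for independent, evenly scattered peaks. At 1 Mb it was 16.1 in WT, 15.6 in KO and 7.86 in the equal-number set.

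When list size was matched, KO had the higher variance to mean ratio at each window size. Variance to mean ratios of KO and the equal-number WT set were 1.51 and 1.36 in windows of 10 kb, 4.59 and 2.29 at 100 kb, 15.6 and 7.86 at 1 Mb, and 36.1 and 19.1 at 10 Mb. The mean count per window rises with window size and the ratio rises with it, so these differences are not compared between window sizes. The ratio of the complete WT list lay above KO at 10 kb, 1 Mb and 10 Mb and below it at 100 kb, but the ratio grows with the number of peaks and cannot be compared between lists of unlike size.

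**Figure D2:**
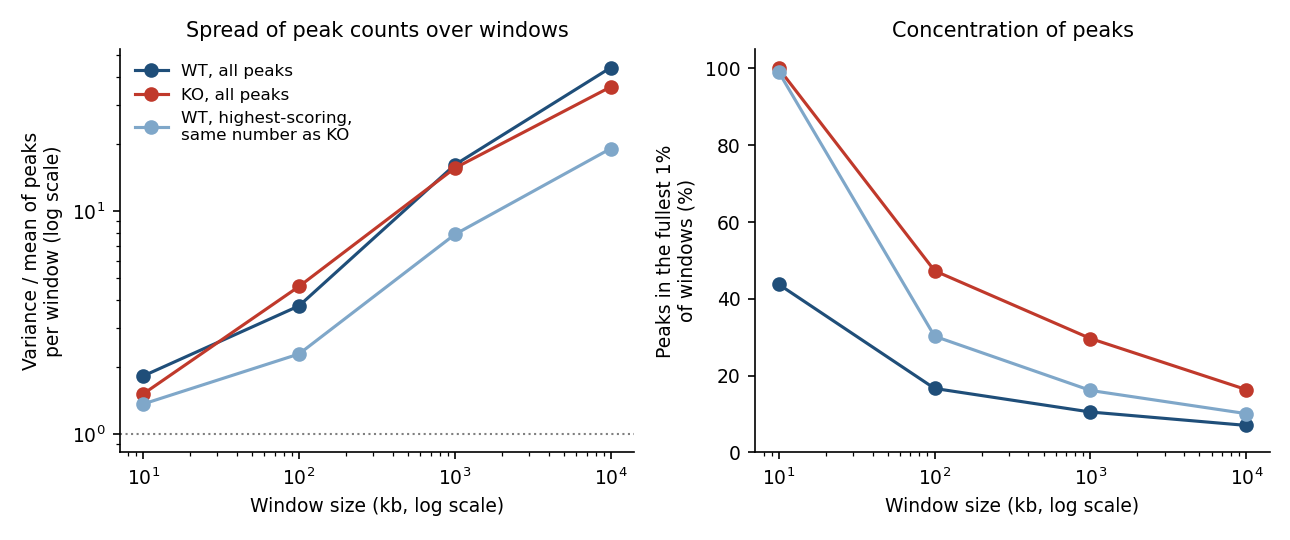
Variance to mean ratio of peak counts per window (left, log axis) and share of peaks in the fullest 1% of windows in percent (right) against window size in kb (log axis). Points are the values of WT, KO and the equal-number WT set, and the dotted line marks a ratio of 1. KO lies above the equal-number WT set at all 4 sizes in both panels, with 29.7% against 16.1% of peaks in the fullest 1% of windows at 1 Mb. At 10 kb the right panel is saturated. There the fullest 1%, 2414 windows, takes in every window with a KO peak, so its 100% does not show concentration.

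Few of the crowded windows were shared by the 2 genotypes. Of the 50 fullest windows of each list, which are 2.06% of all windows, 3 were shared, 6% of either set. Of the 100 fullest, 4.12% of all windows, 9 were shared, 9% of either set. Both shares were small and lay above the share of all windows that the sets make up. Over all 2426 windows, which share chromosomes and mappable sequence, the counts had a Spearman rho of 0.07 and a Pearson r of 0.07. KO held fewer peaks than WT in 1937 windows and more in 208. In 1358 windows there were WT peaks and no KO peak, and in 88 the reverse.

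In WT the fullest windows were on chromosome 4 from 145 to 147 Mb, with 232 and 280 peaks, and on chromosome 10 from 81 to 82 Mb, with 141. KO had 5, 7 and 1 peaks there. Distal chromosome 4 is known to hold a large cluster of KRAB zinc finger genes, given here as background since no annotation of build mm9 was used. In KO the fullest windows were on chromosome 15 from 87 to 88 Mb with 113 peaks, on chromosome 15 from 86 to 87 Mb with 50, and on chromosome 10 from 121 to 122 Mb with 47. WT had 9, 2 and 11 peaks in these.

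Full KO windows often lay side by side. A rule chosen after the counts had been seen, at least 10 peaks in each of 2 or more neighbouring windows of 1 Mb, gave 9 runs in KO with 663 peaks in 21 windows, 23.2% of the KO list. The same rule gave 2 runs with 196 peaks in the equal-number WT set. In the complete WT list, where the threshold is reached more easily, it gave 98 runs with 5189 peaks. The KO runs lay on chromosome 2 (177 to 180 Mb, 95 KO and 37 WT peaks), chromosome 3 (92 to 94 Mb, 32 and 29), chromosome 5 (94 to 96 Mb, 32 and 9), chromosome 7 (66 to 68 Mb, 35 and 23), chromosome 10 (117 to 119 Mb, 73 and 6, and 123 to 126 Mb, 80 and 11), chromosome 11 (113 to 115 Mb, 74 and 32), chromosome 15 (86 to 89 Mb, 189 and 15) and chromosome 17 (48 to 50 Mb, 53 and 10). The windows were picked for their KO counts, so a high KO number in them is given by the rule. In these 21 windows KO had 31.6 peaks per Mb and WT 8.19, against 0.914 and 5.83 in the other windows. Reads of the input samples, which would show the number of DNA copies in these windows, were not analysed here, and the part of copy number in the run counts was not tested.

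By the rule a run ends at a window with under 10 KO peaks. Of the 18 windows that flanked the runs 9 held no KO peak, 50% where 63.1% of all windows held none, and the fullest held 5. WT counts in the same flanks ranged from 0 to 18 with a median of 9. Inside the runs 61.4% of KO peaks had a neighbour within 5 kb (57.6 to 65.1%), against 23.3% of KO peaks elsewhere (21.5 to 25.1%). KO peaks inside the runs had a median length of 519 bp and those elsewhere 430 bp. The runs were chosen for crowding, so closer neighbours inside them were built in and are given as a description.

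Few KO peaks of the runs lay on WT peaks. Of the 663, 25 overlapped a WT peak (3.77%, 2.45 to 5.52%), and of the 2199 others 299 did (13.6%, 12.2 to 15.1%). The 25 came mainly from chromosome 7, with 13 of its 35 peaks, and chromosome 3, with 8 of 32. On chromosome 15 the overlap was 0 of 189, which by the limit of 3 counts allows a share of up to 1.59%, and on chromosome 2 it was 0 of 95, which allows up to 3.16%. H4K20me3 peaks in the 21 windows numbered 78 in WT and 73 in KO, a ratio of 0.936, against 11026 and 8600 elsewhere, a ratio of 0.780.

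**Figure D3:**
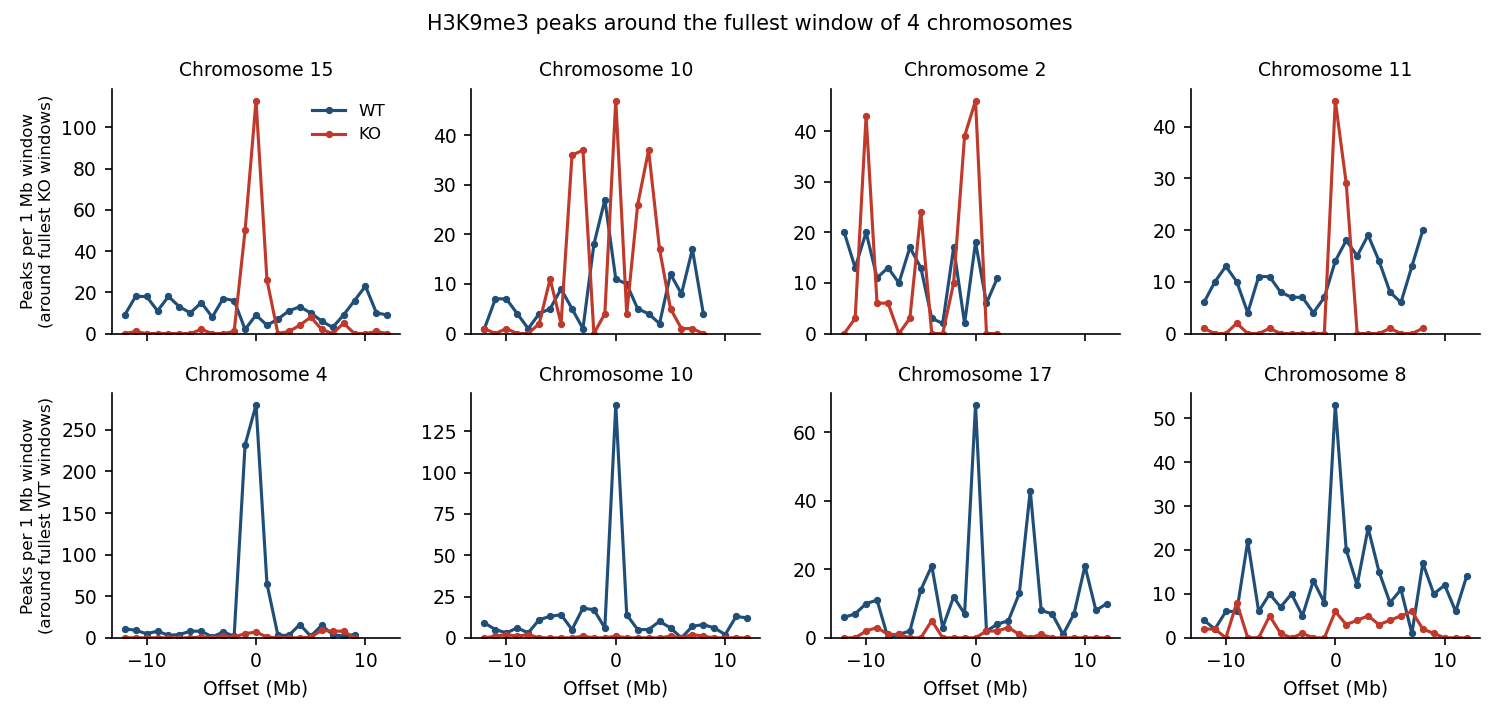
H3K9me3 peaks per window of 1 Mb against offset in Mb from the fullest window, up to 12 Mb to either side, for the 4 chromosomes with the fullest KO windows (top) and the 4 with the fullest WT windows (bottom). Blue is WT and red is KO, and each panel has its own count axis. KO reaches 113 peaks on chromosome 15 where WT has 9, and WT reaches 280 on chromosome 4 where KO has 7.

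Density differed between chromosomes in both genotypes. Over the spans between the outermost peaks, 2414 Mb in all, there were 5.88 WT and 1.19 KO peaks per Mb. WT was densest on chromosome 17 (11.0 per Mb) and sparsest on chromosome 18 (1.66 per Mb), a 6.60-fold range. KO was densest on chromosome 15 (3.62 per Mb) and sparsest on chromosome 13 (0.239 per Mb), a 15.1-fold range. Across the 19 chromosomes, which share a library and differ in gene content, the densities of both lists had a Spearman rho of 0.70 and a Pearson r of 0.66. Chromosome 13 departed from that order, with rank 9 of 19 in WT and rank 19 in KO and with 764 WT and 28 KO peaks. Chromosome 15 had rank 3 in WT and rank 1 in KO, with 890 and 364 peaks, of which the run from 86 to 89 Mb held 15 and 189. Chromosome 7 had rank 18 in WT and rank 10 in KO, with 317 and 123 peaks.

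Median peak length by chromosome ran in WT from 369 bp on chromosome 18 to 536 bp on chromosome 4. In KO it ranged from 404.5 bp on chromosome 19 to 1085 bp on chromosome 10. The wider KO range came from chromosome 10 alone, since the next highest KO median was 538 bp, on chromosome 7. On chromosome 10 the 2 runs held 73 and 80 of its 280 KO peaks, with median lengths of 1321 bp and 902.5 bp. Chromosome 4 was the most closely packed in WT, where 68.4% of its peaks had a neighbour within 5 kb, and only 18.4% of its 125 KO peaks did. Chromosome 7 went the other way, with 40.7% in WT and 54.5% in KO.

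Peaks of both genotypes were most frequent toward the distal end. Mouse chromosomes have the centromere at the start of their coordinates. When each chromosome was divided into 5 equal parts, the last part held 26.7% of WT peaks (26.0 to 27.5%) and 37.7% of KO peaks (35.9 to 39.5%), where an even spread would put 20%. The second part held the fewest, 16.9% in WT and 13.4% in KO. The windows of the 9 runs were picked for high KO counts, and without them the KO share was no longer above that of WT. The last part then held 25.8% of KO peaks (24.0 to 27.7%) and 26.3% of WT peaks (25.6 to 27.1%), with overlapping intervals. When the 3 fullest windows of each list were left out instead, the KO share stayed the higher. It was then 32.4% in KO (30.7 to 34.3%) and 24.1% in WT (23.4 to 24.8%). In WT the last part of chromosome 4 held 57.5% of its peaks. Without chromosome 4 the share was 23.7% in WT and 37.5% in KO. In KO the last part held 83.6% of the peaks of chromosome 10 and 77.7% of those of chromosome 2. The distal preference was thus not shared by all chromosomes, and the last part was the fullest on 9 of 19 in WT and on 7 of 19 in KO. H4K20me3 peaks had a like distribution, with 26.7% in the last part in WT and 27.2% in KO.

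The outermost megabases differed between the genotypes. The first 1 Mb of the 19 spans, which is 0.787% of the sequence, held 203 WT peaks (1.43%, 1.24 to 1.64%) and 67 KO peaks (2.34%, 1.8 to 2.96%). That is 1.8 times the mean density of WT and 2.97 times that of KO. KO peaks there were long, with a median of 892 bp against 480 bp for WT. At the other end, the last 1 Mb held 190 WT peaks (1.34%) and 27 KO peaks (0.943%, 0.623 to 1.37%), 1.70 and 1.20 times the mean, and their intervals overlapped (1.16 to 1.54% in WT). Over the last 5 Mb the KO share was the higher, at 7.65% (6.70 to 8.69%) against 5.28% in WT (4.92 to 5.66%), and outside the 9 runs it was 4.87% (4.00 to 5.85%). Within the first 5 Mb KO was at 1.08 times its mean density and WT at 1.30 times. The runs raise the KO mean, and for KO peaks outside the 9 runs the value was 1.41 times their mean.

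**Figure D4:**
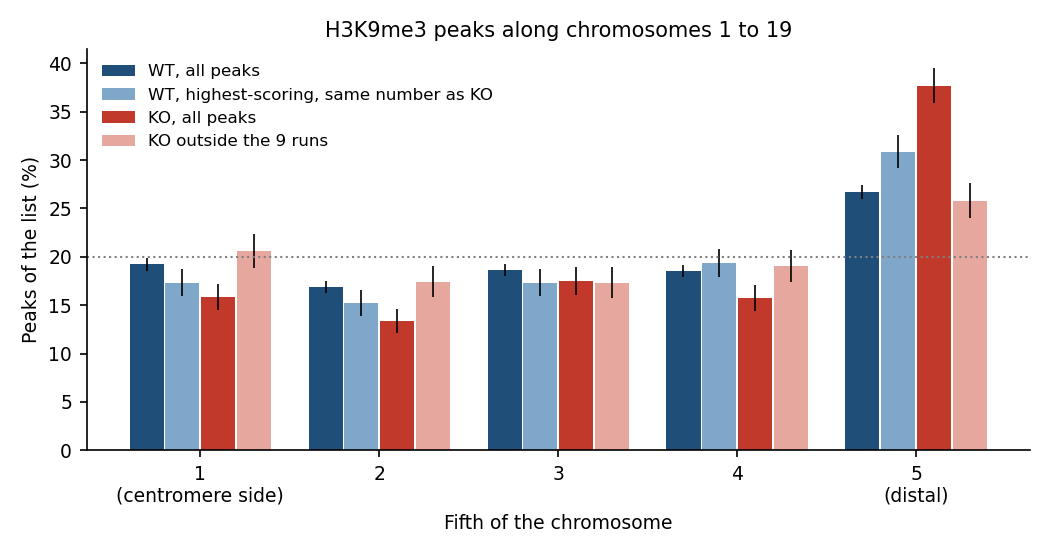
Share of H3K9me3 peaks in percent (bars, with exact 95% intervals as lines) in each of 5 equal parts of the chromosomes, from the centromere side to the distal end, for WT, the equal-number WT set, KO and KO outside the 9 runs. The dotted line at 20% is an even spread. The last part holds 26.7% of WT and 37.7% of KO peaks, and 25.8% of KO peaks outside the runs.

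Long stretches without a peak were common in KO. Gaps of over 5 Mb numbered 120 in KO, 2 in WT and 95 in the equal-number WT set, whose longest gap, at 27.7 Mb, exceeded that of KO. The longest in KO lay on chromosome 12 from 22063545 to 43730587, 21.7 Mb that held 35 WT peaks. The next lay on chromosome 12 from 5066312 to 20236094 (15.2 Mb, 35 WT peaks) and on chromosome 7 from 115638313 to 130165565 (14.5 Mb, 19 WT peaks). H4K20me3 was called in these KO gaps in both genotypes, with 27 WT and 30 KO peaks in the first, 17 and 15 in the second and 47 and 48 in the third. The longest WT gap, on chromosome 7 from 34618178 to 46641098 (12.0 Mb), held 20 KO peaks. It also held 13 WT and 17 KO peaks of H4K20me3.

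Peaks within 5 kb of each other were then merged into domains. WT gave 9573 domains and KO 2247, with a mean of 1.48 and 1.27 peaks each. Most domains were single peaks. Domains of 2 or more peaks were 26.6% in WT (2546 domains, 25.7 to 27.5%) and 13.5% in KO (304 domains, 12.1 to 15.0%), and 15.0% in the equal-number WT set (13.6 to 16.5%). Multi-peak domains were few but held much of the sequence, 71.5% of the total domain length in WT and 63.5% in KO. Peaks covered 50.2% of the length of these domains in WT and 49.2% in KO, and 68.7% in the equal-number WT set.

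Multi-peak domains were longer in KO than in the complete WT list. Their median length was 2.44 kb in WT (2.35 to 2.57 kb) and 4.00 kb in KO (3.52 to 4.45 kb). In the equal-number WT set the median was 3.53 kb (3.29 to 3.93 kb), and its interval overlapped that of KO. Peaks inside multi-peak domains had median lengths of 484 bp in WT and 578 bp in KO, and single peaks 435 and 414 bp. Domains of at least 10 kb numbered 100 in WT (1.04%) and 45 in KO (2.00%). Domains of at least 50 kb numbered 5 and 3, and domains of 10 or more peaks 29 and 6. In the equal-number set 36 domains reached 10 kb and 4 had 10 or more peaks, fewer than in KO. Chromosome 4 held 25 of the 100 WT domains of at least 10 kb and 16 of the 29 with 10 or more peaks. In KO it held 1 of 45 and 0 of 6.

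The 5 longest WT domains all lay on distal chromosome 4. The longest ran from 146527857 to 146745577, 217.7 kb with 86 peaks that covered 67.3% of it. It was followed by domains from 145649216 to 145771366 (122.2 kb, 37 peaks), from 145393190 to 145475229 (82.0 kb, 29 peaks), from 146751215 to 146824666 (73.5 kb, 19 peaks) and from 145539908 to 145598650 (58.7 kb, 25 peaks). The first 3 held 4, 1 and 1 KO peaks, which covered 2.44%, 1.62% and 2.31% of their peak bases, and the other two held none. All 5 contained WT H4K20me3 peaks, with 4, 7, 4, 1 and 6. The third alone contained KAP1 peaks, 2 of them. By number of peaks the fifth place went to a domain on chromosome 10 from 81356174 to 81388968 (32.8 kb, 22 peaks), with no KO peak and no KAP1 peak.

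The longest KO domains lay elsewhere. They were on chromosome 17 from 31005592 to 31062332 (56.7 kb, 22 peaks), chromosome 3 from 92040248 to 92094546 (54.3 kb, 15 peaks), chromosome 10 from 117741929 to 117793518 (51.6 kb, 14 peaks), chromosome 7 from 67002201 to 67050436 (48.2 kb, 25 peaks) and chromosome 5 from 15178701 to 15204338 (25.6 kb, 6 peaks). In the same order they contained 3, 1, 0, 16 and 1 WT peaks. Those on chromosomes 17, 3, 10 and 5 had no peak of KAP1 or of H4K20me3 in either genotype. By number of peaks a domain on chromosome 8 from 57974971 to 57999352 (24.4 kb, 12 peaks) took the fifth place, with 5 WT H3K9me3 peaks, 4 KO H4K20me3 peaks and 0 WT ones.

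Of the 5 longest WT domains with a KO peak, the one on chromosome 7 at 67.0 Mb had the largest share of peak bases under KO peaks. In WT it ran from 67004040 to 67040280 (36.2 kb, 16 peaks). In KO the list had 18 peaks within that stretch, and KO peaks covered 95.9% of the bases of its WT peaks. Its KO extent was the larger, 48.2 kb with 25 peaks. It held 2 KAP1 peaks within its WT limits and 3 within its KO limits. Another long domain with a KO peak, on chromosome 4 from 147104128 to 147140984 (36.9 kb, 20 peaks), had 2.99% of its peak bases under KO peaks. The longest WT domains without a KO peak, after those already named, were on chromosome 4 from 145260428 to 145307416 (47.0 kb), from 146108536 to 146146279 (37.7 kb) and from 146996585 to 147033882 (37.3 kb).

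Of the 9573 WT domains 253 held a KO peak, 2.64% (2.33 to 2.98%). The share rose with the number of peaks in the domain. It was 1.95% for single peaks (137 of 7027, 1.64 to 2.30%), 3.28% for 2 peaks (53 of 1618, 2.46 to 4.26%), 5.48% for 3 or 4 (41 of 748, 3.96 to 7.36%), 9.27% for 5 to 9 (14 of 151, 5.16 to 15.1%) and 27.6% for 10 or more (8 of 29, 12.7 to 47.2%). A longer domain offers more sequence to meet, so shares of bases and of peaks are given too. KO peaks covered 2.85% of the WT peak bases in single-peak domains and 3.59% in domains of 10 or more peaks. Counted by peak, 1.95% of WT peaks in single-peak domains (1.64 to 2.30%) and 4.86% of those in domains of 10 or more (27 of 556, 3.22 to 6.99%) overlapped a KO peak. The domain on chromosome 7 at 67.0 Mb supplied 16 of these 27 peaks. Without it, an exclusion chosen after its values were seen, 2.04% of the peaks in the other 28 domains overlapped a KO peak (11 of 540, 1.02 to 3.62%) and 1.33% of their peak bases lay under KO peaks. Of the 28, 7 still held a KO peak (25%, 10.7 to 44.9%). The rise in the largest class, by peaks and by bases, thus rested on 1 domain. Smaller classes did not depend on it. In domains of 5 to 9 peaks 3.65% of peaks overlapped a KO peak (2.53 to 5.09%). Grouped by length, WT domains under 1 kb had 1.52% of their peaks overlapped and 1.39% of their peak bases under KO peaks. For WT domains of 10 to under 20 kb the values were 6.62% (4.54 to 9.27%) and 11.6%. For the 25 WT domains of 20 kb or more they were lower, at 4.76% (24 of 504 peaks) and 3.51%. The domain on chromosome 7, 36.2 kb long, supplied 16 of these 24 peaks. By length the shares thus did not rise further in the longest class.

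Multi-peak WT domains that held a KO peak were mostly found in part. In the 137 single-peak WT domains with a KO peak, the only WT peak was overlapped by definition. Of the 116 multi-peak WT domains that held a KO peak, every WT peak overlapped a KO peak in 31, some but not all did in 83, and in 2 the KO peak lay in a gap. A single KO peak was present in 78 of them. Where 1 WT domain met 1 KO domain, in 242 pairs, the median length was 1300 bp in WT and 720 bp in KO. The WT domain was the longer in 137 pairs and the KO domain in 103. It had more peaks in WT in 83 pairs, more in KO in 38 and equal numbers in 121.

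**Figure D5:**
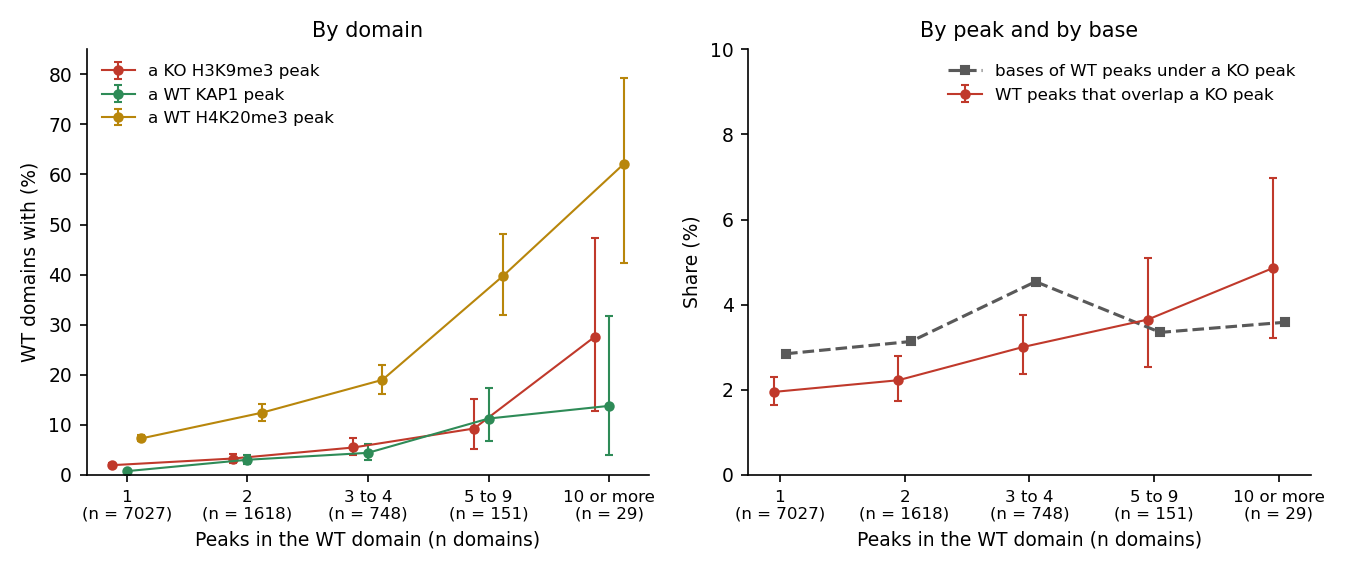
WT domains by number of peaks per domain (horizontal axis, with the number of domains). Left, percent of domains with a KO H3K9me3 peak, a WT KAP1 peak or a WT H4K20me3 peak. Right, percent of WT peaks that overlap a KO peak and percent of WT peak bases under a KO peak, with lines on the points for exact 95% intervals. From single peaks to domains of 10 or more, the share with a KO peak goes from 1.95 to 27.6%, while the share of bases under KO peaks goes from 2.85 to 3.59%, or to 1.33% without the domain on chromosome 7.

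The other libraries, which played no part in choosing the domains, also followed domain size. A WT H4K20me3 peak lay in 9.75% of all WT domains. The share was 7.29% for single peaks (6.69 to 7.92%), 12.4% for 2 peaks, 19% for 3 or 4, 39.7% for 5 to 9 (31.9 to 48.0%) and 62.1% for 10 or more (18 of 29, 42.3 to 79.3%). A KO H4K20me3 peak lay in 110 of all 9573 WT domains (1.15%, 0.945 to 1.38%). On these chromosomes the complete H4K20me3 lists had 11104 peaks in WT and 8673 in KO. Of the 933 WT domains with a WT H4K20me3 peak, 77 also held a KO H4K20me3 peak (8.25%, 6.57 to 10.2%). That share too was higher in large domains, at 5.66% for single peaks (3.83 to 8.03%) and 38.9% for 10 or more (7 of 18, 17.3 to 64.3%). The same remark on length applies, since larger domains have more room for a peak of either list. The share of all WT H4K20me3 peaks that met a KO one is not given here. The 8.25% is therefore not read as particular to these domains.

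KAP1 peaks lay in 1.63% of WT domains, 156 of 9573. The KAP1 list had only 361 peaks on these chromosomes, so the share of all domains that could hold one was small from the start. The share was 0.754% for single peaks (53 of 7027, 0.565 to 0.985%), 3.03% for 2 peaks, 4.41% for 3 or 4, 11.3% for 5 to 9 (17 of 151, 6.70 to 17.4%) and 13.8% for 10 or more (4 of 29, 3.89 to 31.7%). A KAP1 peak was thus present in a minority even of the largest domains. KAP1 was measured in WT cells only.

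KO domains of more peaks met WT peaks more often, and by bases there was no steady rise. Of the 2247 KO domains 255 overlapped a WT peak, 11.3% (10.1 to 12.7%). The share was 9.73% for single peaks (189 of 1943, 8.45 to 11.1%), 18.4% for 2 peaks, 20.9% for 3 or 4, 33.3% for 5 to 9 and 5 of 6 for 10 or more. The share of KO peak bases under WT peaks was 12.9%, 19.3%, 14.9%, 13.6% and 19.1% in the same order. The domain of 10 or more peaks without a WT peak, the one on chromosome 10 from 117741929 to 117793518, was the longest KO domain without a WT peak within 5 kb. The next such domains were on chromosome 5 from 26416091 to 26439880 (23.8 kb), on chromosome 10 from 121765905 to 121789512 (23.6 kb) and from 117676172 to 117697519 (21.3 kb), and on chromosome 7 from 46529291 to 46546978 (17.7 kb). None of these 5 held a KAP1 peak or an H4K20me3 peak of either genotype. A KO H4K20me3 peak lay in 3.16% of KO domains (71 of 2247) and a WT KAP1 peak in 0.579% (13 of 2247).

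Inside the 9 runs KO domains were larger and had fewer partners. There, 127 of 383 domains had 2 or more peaks (33.2%, 28.5 to 38.1%), against 177 of 1864 elsewhere (9.50%, 8.20 to 10.9%), which follows in part from choosing crowded windows. A WT H3K9me3 peak overlapped 11 of the 383 (2.87%, 1.44 to 5.08%) and 244 of the 1864 (13.1%, 11.6 to 14.7%). A KO H4K20me3 peak lay in 2 of the 383 (0.522%, 0.0633 to 1.87%) and in 69 of the 1864 (3.7%, 2.89 to 4.66%). The domains of the runs thus had few peaks of either other list.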

How the data were processed

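The data were 5 lists of ChIP-seq peaks from MEF, each from 1 library. The 3 input samples were not analysed here. The tools were MACS 1.4, Bowtie2 2.2.1 and CASAVA 1.82 and the genome build mm9, per the submitters' processing notes. For call parameters and the control of the histone calls, nothing was given in the sources used here. The score deposited by the authors for each peak was read as the peak caller's score, and no peak scored under 50.

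From these, peaks on chromosomes 1 to 19 were kept and positions are printed counting from 1. Python 3.11.15, numpy 2.4.6, pandas 2.3.3, scipy 1.17.1 and matplotlib 3.10.9 were used. Domains are peaks merged at gaps of at most 5 kb, and gave the same result as bedtools 2.31.1. Overlap means at least 1 bp. A domain counts as holding a peak that overlaps any part of it, gaps between its peaks included. For a count of 0 the upper limit is 3 counts of the total. Other shares have exact Clopper-Pearson 95% intervals, and medians have exact binomial 95% intervals. Windows count peaks by midpoint, and spans run between the outermost peaks of any of the 5 lists. The code was tested on simulated data.

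The regions compared, lists and alternatives were chosen with earlier results of these data known. The runs of windows, the division by score, the pairs of overlapping peaks and the longest gaps were added after seeing the data. The rule for named regions took the 3 longest peaks and the 3 fullest windows of each list, the 5 longest domains and the 5 with most peaks, the 5 longest WT domains with and without a KO peak, the 5 longest KO domains without a WT peak within 5 kb, and the densest and sparsest chromosomes. The chromosomes and runs named beside these were chosen after their values were seen. Sequence and gene annotation of build mm9 were not used here. The alternatives were other score and list-size limits, chromosomes, windows, merging distances and overlap rules.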

Additional observations from a re-analysis of the deposited data

Results flagged for a closer look

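Peaks outside chromosomes 1 to 19 took no part in the comparisons above. On unplaced and unlocalised sequence 213 H3K9me3 peaks were called in WT (1.46% of the complete list, interval 1.27 to 1.67%) and 233 in KO (7.34%, 6.45 to 8.30%), drawing attention as a signal in data left out. These counts were close to each other, whereas on chromosomes 1 to 19 WT had 14185 peaks and KO 2862. The shares refer to lists of unlike length, so the higher KO share does not stand for many more KO peaks. KO did not have more peaks in every part, since unlocalised sequence of X and Y held more WT than KO peaks. On all unplaced and unlocalised sequence the H4K20me3 lists had 21 peaks in WT and 33 in KO, and the KAP1 list had 4. Median lengths of the H3K9me3 peaks there were 722 bp in WT and 1028 bp in KO.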

How the results depend on the processing

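The alternatives were applied to 14 main results, and 45 of their 97 values stayed inside the 95% counting interval of the reported value. The other 52 are given here, and besides them the exclusion of 1 domain on chromosome 7 is given beside its result above. No paired analysis was possible because each group holds 1 library. Depth is unknown, so it cannot be said which sites without a peak were too shallow to call.

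With scores of at least 100, the WT values were a median length of 769 bp, 34.2% with a neighbour within 5 kb, 47.5% in the fullest 10% of windows, 29.1% in the last part of the chromosomes and 16.5% multi-peak domains. The KO values were 1011 bp, 38.8%, 100%, 35.4% and 17.7%, where the 100% is saturated because 91.8% of windows then held no KO peak. One score limit in libraries of unknown depth is not a like limit, so these values are not compared between genotypes. KO domains with a WT peak were then 28.1%, and WT domains with KAP1 2.17% and with WT H4K20me3 11.9%. With equal numbers of peaks the WT values were 926 bp, 31.2%, 53.9%, 30.9% and 15.0%, and 5.22% of WT domains held a KO peak, 5.43% of KO domains a WT peak, 4.75% of WT domains a KAP1 peak and 23.6% a WT H4K20me3 peak.

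Without chromosome 4 the WT values were 453 bp, 48.7%, 33.5% and 23.7% for length, neighbours, fullest windows and last part. Without the 3 fullest windows of each list they were 451.5 bp, 48.3%, 33.1% and 24.1%, and in KO neighbours were 29.1%, fullest windows 69.5%, last part 32.4% and multi-peak domains 12.0%. With chromosome X the fullest 10% of windows held 36.8% of WT peaks, and with windows of 5 Mb they held 29.3% in WT and 57.5% in KO. Merging at 1 kb gave 19% multi-peak domains in WT and 8.44% in KO, with WT H4K20me3 in 8.96% of WT domains, and merging at 10 kb gave 29.8% and 17.0%. When a KO peak had to cover 50% of the bases, 1.62% of WT domains and, in reverse, 8.59% of KO domains qualified, and within 5 kb 3.97% and 16.8% did. Without the 9 runs, an alternative chosen after seeing the data, the KO values were 430 bp, 23.3% with a neighbour, 64.7% in the fullest windows, 25.8% in the last part, 9.50% multi-peak domains and 13.1% of domains with a WT peak.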
